A study of Mus musculus with 9 samples.

Results

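The testis-specific serine kinases (TSSKs) are protein kinases made almost only in male germ cells after meiosis. Their members were taken as the rows of the deposited gene table whose symbol is Tssk1, Tssk2, Tssk3, Tssk4 or Tssk6, which gave 5 of 22337 genes, all of them above the filter on low counts in every comparison. RNA from whole testes of mice aged 3 weeks was sequenced in 9 libraries, 3 from wild-type mice, 3 from Piwil4 WT/R264W mice with 1 mutant allele and 3 from Piwil4 R264W/R264W mice with both alleles mutant. The knock-in puts tryptophan in place of an arginine in PIWIL4, which binds piRNAs in the nuclei of male germ cells, and was made by genome editing of C57BL/6 zygotes. PIWIL4 acts in fetal gonocytes and some spermatogonia, long before the stages that make TSSKs, and no group carried a transgene or received a treatment. The comparisons ask whether the mutation alters gene expression in the first wave of spermatogenesis, the synchronous round of sperm formation that starts soon after birth. The labels number the libraries of a genotype as replicates without saying which animal each came from, so p-values measure the spread between these libraries, which may be technical.

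TSSKs belong to the kinase group that also holds the AMP-activated kinases, and several consist of little more than a kinase domain. Round spermatids, the haploid cells that follow meiosis, begin to make them, and the proteins act while these cells condense their chromatin and build the flagellum. TSSK1 and TSSK2 phosphorylate the scaffold protein TSKS, and male mice without both genes are infertile. TSSK3 is required for male fertility in mice, TSSK4 phosphorylates ODF2, a protein of the outer dense fibres of the sperm tail, and TSSK6 is needed for the replacement of histones in spermatid chromatin.

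Tssk1 (ENSMUSG00000041566, plus strand of chr16:17894223-17897922) and Tssk2 (ENSMUSG00000045521, plus strand of chr16:17898637-17900024) are neighbours in the same orientation in the GENCODE annotation of GRCm38. Each of these genes lies in 1 exon, as does Tssk6 (ENSMUSG00000047654, plus strand of chr8:69902184-69903518). Tssk3 (ENSMUSG00000000411, minus strand of chr4:129489014-129491022) has 2 exons, and the first listed transcript of Tssk4 (ENSMUSG00000007591, plus strand of chr14:55650184-55652539) has 4. The deposited table holds no coordinates, and the submitters' processing notes name the build mm39, so these positions are those of the annotation and not of the table. The coding sequences of Tssk1 and Tssk2 were identical at 856 of 1045 aligned bases (81.9%), while the other 9 pairs of members were between 62.2% and 67.0% identical. The longest stretch of coding sequence common to Tssk1 and Tssk2 without a mismatch was 113 bases, against at most 13 bases in any other pair. It is shown because a read lying wholly within it would match both genes, although the paper's reads are longer than this stretch unless trimmed. It lies at chr16:17894723-17894835 in Tssk1 and at chr16:17899105-17899217 in Tssk2, on the plus strand of GRCm38:
Tssk1 and Tssk2: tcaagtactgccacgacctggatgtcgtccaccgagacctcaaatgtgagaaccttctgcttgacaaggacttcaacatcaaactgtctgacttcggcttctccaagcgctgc

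Promoters of all 5 members were found among the RefSeq promoters of GRCm38.p6. The 74 bases just before the start used in that table are shown for the neighbours Tssk1 and Tssk2 and for Tssk4, with capitals marking TGACTTCA on either strand. Those of Tssk3 and Tssk6 fall in annotated untranslated regions and are not shown. The Tssk4 stretch ends just before the GENCODE start but lies within a longer RefSeq extent of the gene, which begins at position 55643651. The stretches are chr16:17894129-17894202, chr16:17898563-17898636 and chr14:55650110-55650183, all on the plus strand.
Tssk1: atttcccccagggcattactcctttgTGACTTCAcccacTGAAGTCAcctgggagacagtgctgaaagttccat
Tssk2: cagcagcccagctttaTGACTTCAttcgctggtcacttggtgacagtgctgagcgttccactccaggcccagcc
Tssk4: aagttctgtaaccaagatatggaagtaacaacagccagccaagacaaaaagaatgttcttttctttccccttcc
The Tssk1 and Tssk2 stretches were identical at 46 of 61 aligned bases. TGACTTCA starts 48 bases before the start of Tssk1, is followed there by its reverse complement 35 bases before the start, and starts 58 bases before that of Tssk2. In the 250 bases before the start, on both strands, 1.31% of 32851 RefSeq promoters hold it. It was chosen after the Tssk1 and Tssk2 sequences had been read, as 1 of 7 motifs searched, so that its presence in both is a description. Of the other 6, the cyclic AMP response element TGACGTCA (in 1.55% of all promoters), the TATA box TATAAA (12.4%), the X-box letters GTTGCC (10.4%) and the MYB letters AACNGTT (3.80%) were in no member's 250 bases. The letters TGACG, which TGACGTCA contains and TGACTTCA does not, were found before Tssk6 (17.8% of all promoters), and CCAAT before Tssk3 and Tssk4 (33.8%). A match shows only that the letters are there.

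The estimated counts of the 9 libraries summed to between 18 and 24.3 M, and 3 counts, the most that a count of 0 allows for counting error, make 0.122 to 0.172 CPM (counts scaled to library size by TMM). Germ cell and somatic markers of the testis were present in every library, from 7234 to 9600 summed CPM for 10 genes of later spermatocytes and from 253 to 385 for 8 genes of Sertoli cells. A round spermatid score was made for each library as the mean log2 CPM of 18 genes of acrosome, membrane and nucleus, none of them a TSSK. It was used to order the testes, as a stand-in for progress of the first wave, which the labels do not give. The score was lowest in Piwil4 WT/R264W replicate 3 (2.81), then 3.36 in wild-type replicate 3, 4.23 in wild-type replicate 2, 4.28 in Piwil4 R264W/R264W replicate 1 and 4.97 in its replicate 2. It went on to 5.11 in Piwil4 WT/R264W replicate 2, 5.52 in its replicate 1, 6.13 in Piwil4 R264W/R264W replicate 3 and 6.27 in wild-type replicate 1. Each genotype was thus spread along the order, with mean scores of 4.62 ± 1.49 (SD, n = 3) in wild-type, 4.48 ± 1.46 in Piwil4 WT/R264W and 5.13 ± 0.933 in Piwil4 R264W/R264W testes. In whole testes, fewer spermatids and less RNA per spermatid cannot be told apart. Piwil4 itself was low, at 0.29 to 0.64 FPKM (fragments scaled to transcript length and library size), and since the knock-in changes a codon its level does not check the genotype.

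All 5 kinases differed far more between testes of the same genotype than between genotypes. For Tssk1, wild-type replicates 1, 2 and 3 had 32.54, 9.37 and 6.24 FPKM, Piwil4 WT/R264W replicates 21.05, 16.37 and 4.50, and Piwil4 R264W/R264W replicates 11.24, 14.60 and 31.11. For Tssk2 the same libraries had 63.20, 9.54 and 3.54 FPKM, 36, 21.21 and 2.43, and 10.93, 18.97 and 58.44. The highest testis was wild-type replicate 1 and the next Piwil4 R264W/R264W replicate 3 for each of these genes, so the ranges of the 3 genotypes lay over each other. For Tssk3 the values were 16.59, 3.21 and 1.92 FPKM in wild-type, 10.71, 5.68 and 1.0 in Piwil4 WT/R264W and 3.64, 5.07 and 15.66 in Piwil4 R264W/R264W testes. For Tssk4 they were 32.49, 8.89 and 4.89, then 22.02, 17.71 and 2.77, then 8.33, 11.38 and 29.64 FPKM. These kinases had the same highest and lowest testes as Tssk1 and Tssk2, the lowest being Piwil4 WT/R264W replicate 3. For Tssk6 the values were 15.98, 1.38 and 1.37 FPKM in wild-type, 7.30, 2.32 and 0.96 in Piwil4 WT/R264W and 0.83, 2.29 and 13.88 in Piwil4 R264W/R264W testes. Tssk6 was the exception at the low end, where Piwil4 R264W/R264W replicate 1 was below Piwil4 WT/R264W replicate 3, with 25 counts against 24 in libraries of different size. Within a genotype the CPM of Tssk2 spanned 19.7-fold in wild-type, 15.4-fold in Piwil4 WT/R264W and 5.74-fold in Piwil4 R264W/R264W testes.

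**Figure D1:**
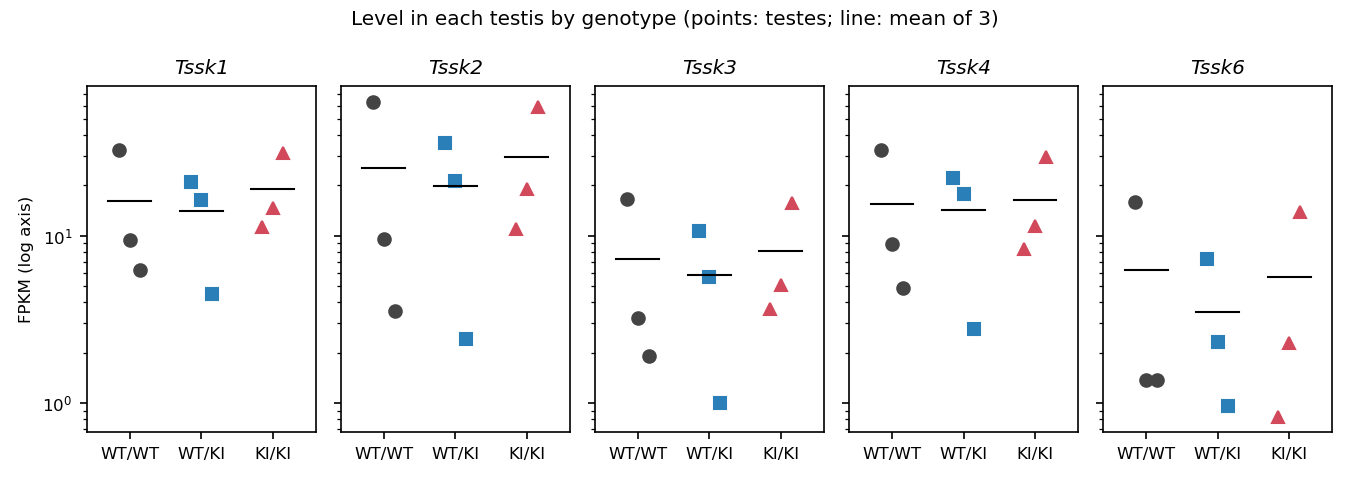
Level of each kinase in FPKM (log axis) in the 3 testes of each genotype, with WT/WT for wild-type, WT/KI for Piwil4 WT/R264W and KI/KI for Piwil4 R264W/R264W; points are testes in the order of replicates 1, 2 and 3 and the line is their mean. The 3 genotypes overlap for every kinase, and the highest point is wild-type replicate 1 in each panel.

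No TSSK passed the test between homozygous mutant and wild-type testes. Tssk1, Tssk2, Tssk3 and Tssk4 had log2 fold changes of 0.21 (SE 0.72), 0.17 (SE 1.13), 0.13 (SE 0.95) and 0.06 (SE 0.81) in Piwil4 R264W/R264W against wild-type testes, and Tssk6 had -0.18 (SE 1.34). Past the threshold of edgeR's quasi-likelihood test, a Benjamini-Hochberg adjusted p under 0.05, were 0 of 5, each with an adjusted p of 1, and 0% of all 15543 genes tested. At an unadjusted p under 0.05 the count was again 0 of 5, where 1.26% of all genes passed, and DESeq2 called 0 of 5 at an adjusted p under 0.05 and 0.00517% of all genes. None of the 5 separated the genotypes without overlap, which 5.68% of genes did. Exact two-sided permutation tests of the 15 differences, in this and the following comparisons, gave p between 0.6 and 1, where 3 against 3 testes allow no p below 0.1. The median log2 fold change of the 5 was 0.13, against -0.01 over all genes tested. Without wild-type replicate 1 all 5 fold changes were positive, from 1.28 for Tssk4 to 2.23 for Tssk2, and without Piwil4 R264W/R264W replicate 3 all 5 were negative, from -0.40 for Tssk1 to -2.10 for Tssk6. With SEs of this size, a change of the family by 2-fold was not detectable.

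Homozygous against heterozygous testes gave higher mean levels for all 5 kinases, none of them past the test. The log2 fold changes were 0.48 (SE 0.62) for Tssk1, 0.61 (SE 0.96) for Tssk2, 0.53 (SE 0.87) for Tssk3, 0.26 (SE 0.76) for Tssk4 and 0.74 (SE 1.12) for Tssk6, with edgeR adjusted p from 0.948 to 0.952. The mean score was also higher in the homozygous testes. Of all 15463 genes tested, 0% passed the adjusted threshold, 2.22% an unadjusted p under 0.05 and 7.16% did not overlap, and for the family each of these counts was 0 of 5. DESeq2 called 0.026% of all genes at an adjusted p under 0.05 and no TSSK. The median of the 5 was 0.53, against 0.01 over all genes tested. Without Piwil4 R264W/R264W replicate 3 all 5 differences turned negative, from -0.12 for Tssk1 to -1.19 for Tssk6.

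Heterozygous against wild-type testes gave lower mean levels for all 5, again with none past the test. The log2 fold changes were -0.28 (SE 0.78) for Tssk1, -0.45 (SE 1.23) for Tssk2, -0.41 (SE 1.04) for Tssk3, -0.20 (SE 0.90) for Tssk4 and -0.92 (SE 1.17) for Tssk6, each with an edgeR adjusted p of 1. Of 15413 genes tested, 0% passed the adjusted threshold, 1.11% an unadjusted p under 0.05 and 5.32% did not overlap, against 0 of 5 kinases for each, and DESeq2 called none of all genes. The median of the 5 was -0.41, against -0.02 over all genes tested. Leaving out wild-type replicate 1 alone turned all 5 positive, from 0.86 for Tssk1 to 1.62 for Tssk2. The 3 comparisons share libraries and are not independent of each other.

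With the round spermatid score as a covariate, in an edgeR fit over all 9 testes, the SEs of 4 of the kinases shrank to between 0.086 and 0.17 and their genotype differences lay between -0.21 and 0.09 on the log2 scale. These 4 kinases followed the score closely in the same libraries, so differences near 0 were largely set in advance. Any effect of genotype on how far the first wave had come would be removed with the score, so this fit cannot show it. In Piwil4 R264W/R264W against wild-type testes the fold changes became 0.03 (SE 0.086) for Tssk1, 0.09 (SE 0.096) for Tssk2, -0.084 (SE 0.17) for Tssk3 and -0.18 (SE 0.11) for Tssk4. Tssk6 kept a wide error, at -0.57 (SE 0.42). In this fit 0 of 5 kinases were at an unadjusted p under 0.05 in each comparison, where 2.72%, 3.13% and 4.06% of 15771 genes passed, and the adjusted count was 0% of all genes each time. The lowest of the 15 unadjusted p-values in this edgeR fit was 0.0845, for Tssk4 in homozygous against heterozygous testes at -0.21 (SE 0.11).

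**Figure D2:**
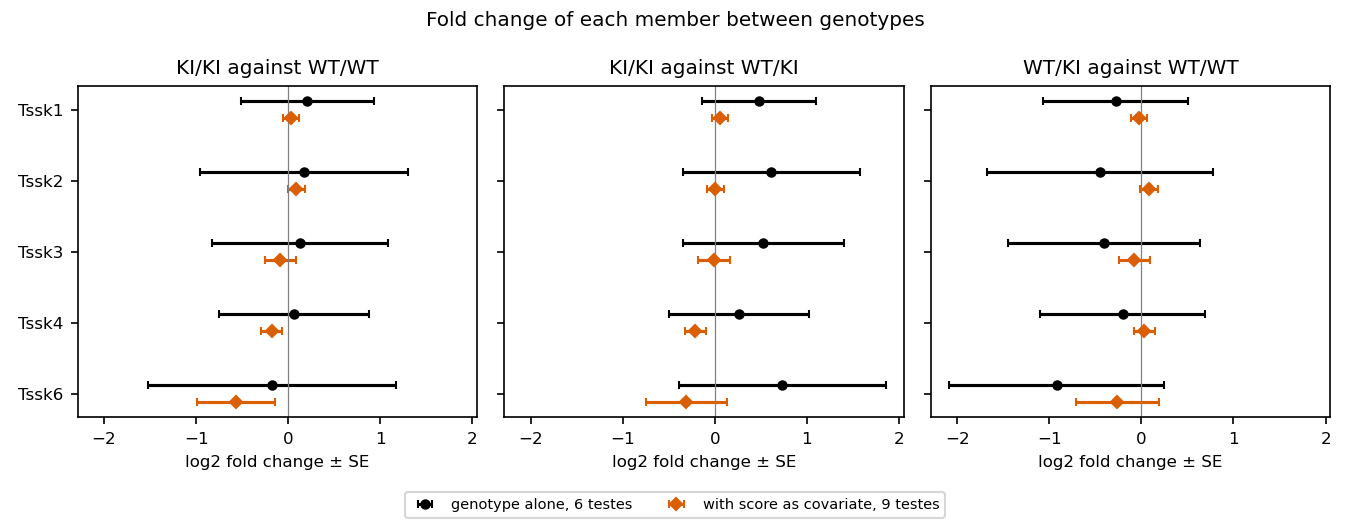
Log2 fold change of each kinase in the 3 comparisons (KI/KI for Piwil4 R264W/R264W, WT/KI for Piwil4 WT/R264W, WT/WT for wild-type), with SE as the bar, from the fit on genotype alone in 6 testes (circles) and with the round spermatid score as covariate in 9 testes (diamonds). The circles have SEs from 0.62 to 1.34, and the diamonds of Tssk1 to Tssk4 lie between -0.21 and 0.09. A genotype effect shared with the score would be taken out of the diamonds.

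The order of the testes by the score was nearly the order of each kinase's level. The score and the kinases come from the same libraries and from the same kind of cell, so what follows is a description without a test. Tssk1, Tssk2 and Tssk3 were in the same order as the score in all 36 pairs of testes, Tssk4 in 35 and Tssk6 in 33. The kinases were not equally steep. Tssk2 had the steepest slope, 1.43 log2 CPM per unit of score (SE 0.030), followed by Tssk6 with 1.25 (SE 0.24), Tssk3 with 1.17 (SE 0.054), Tssk4 with 1.0 (SE 0.044) and Tssk1 with 0.87 (SE 0.025). From the lowest to the highest testis the CPM of Tssk1 spanned 8.12-fold and that of its neighbour Tssk2 29.2-fold, with 18.6-fold for Tssk3, 11.6-fold for Tssk4 and 21.0-fold for Tssk6. Of 14476 genes with a mean of at least 1 CPM, 189 had a slope steeper than that of Tssk2 and 584 one steeper than that of Tssk1, and the median slope of all of them was -0.02. The slopes of the 18 score genes average 1.0, since the score is their mean. A slope near 1.0 thus means moving in step with the score. Their median slope was 1.16, with 14 of the 18 steeper than Tssk1 and 15 above 0.5. Zpbp, Zpbp2 and Dpy19l2, also score genes, were nearly flat, with slopes of 0.17, 0.14 and 0.13. Their lowest levels were 176, 243 and 235 CPM.

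**Figure D3:**
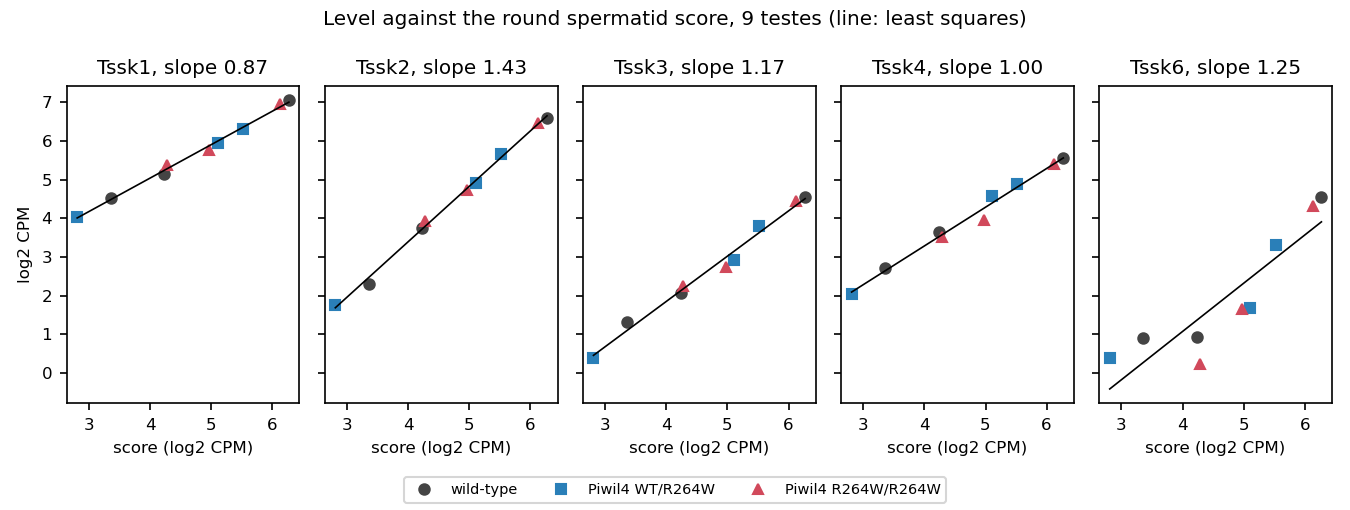
Log2 CPM of each kinase against the round spermatid score (mean log2 CPM of 18 genes) in 9 testes, with a least-squares line; symbols mark the genotype. Tssk1 to Tssk4 lie within a residual SD of 0.083 to 0.18 of their lines across the genotypes, while Tssk6 is below its line in the middle of the order, with a residual SD of 0.81.

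Tssk6 had another shape than the rest. Along the order of the score, its estimated counts were 24, 38, 38, 25, 76, 57, 222, 350 and 505, so the 4 testes with the lowest scores were all at 1.12 to 1.86 CPM. Tssk3 in the same testes had 24, 51, 85, 105, 162, 134, 312, 379 and 503 counts. Tssk3 and Tssk6 thus had equal counts in the lowest testis and nearly equal ones in the highest, and Tssk6 was lower in every testis between. In Piwil4 R264W/R264W replicate 1, the fourth testis, Tssk1 had reached 31.5% of its highest CPM, Tssk4 24.1%, Tssk3 20.0%, Tssk2 15.8% and Tssk6 4.75%. In Piwil4 WT/R264W replicate 1, the seventh, the shares were 59.8%, 62.5%, 59.7%, 52.7% and 42.3% in the same order. Tssk1 had the highest share in the fifth testis as well and Tssk4 in the sixth, with 51.3% against 47.0% for Tssk1, and Tssk6 had the lowest in both. Part of the Tssk6 exon, 375 of 1335 bases (28.1%), lies opposite exons of Ndufa13, a respiratory chain subunit gene on the other strand, whose level was 28.3 to 36.2 CPM in every testis with a slope of 0.03. The Tssk6 count was not a whole number in 4 libraries, and in all 4 its sum with the Ndufa13 count was whole within 0.001. These were wild-type replicate 1, Piwil4 WT/R264W replicate 1 and Piwil4 R264W/R264W replicates 2 and 3. In the 4 testes with the lowest scores the Tssk6 count was whole. Whether counting used the strand is not given in the sources used here, so reads from the overlap cannot be told apart, and the part of Ndufa13 in the low Tssk6 values was not tested.

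**Figure D4:**
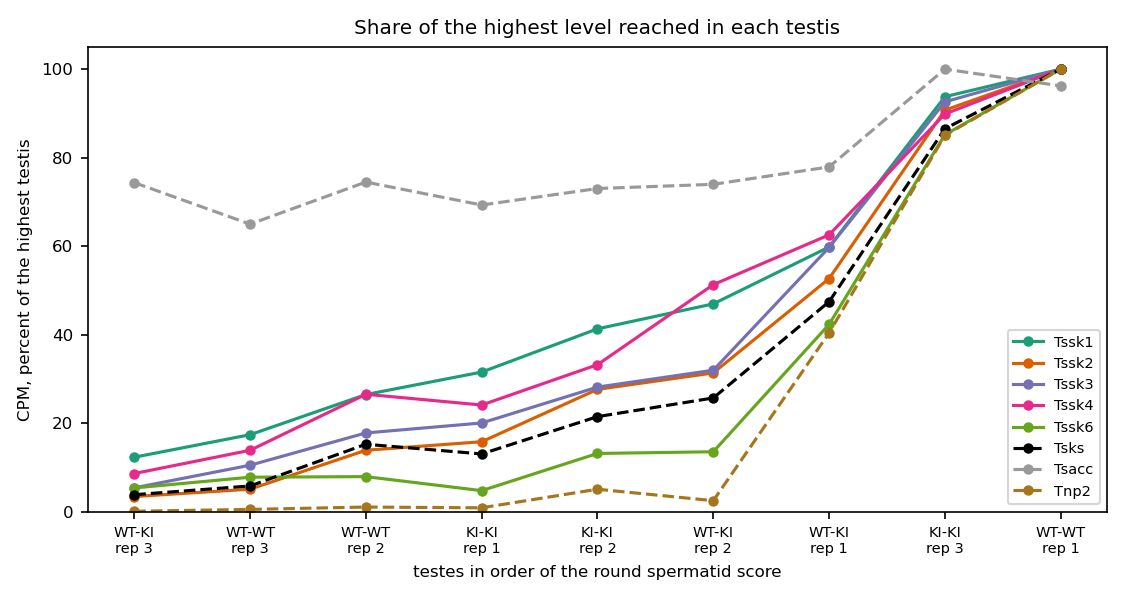
CPM of each kinase, of the substrate gene Tsks, the co-chaperone gene Tsacc and the transition protein gene Tnp2 as a percentage of its highest testis, with the 9 testes in order of the round spermatid score (WT-WT wild-type, WT-KI Piwil4 WT/R264W, KI-KI Piwil4 R264W/R264W). Tssk6 is lowest of the kinases from the third testis on, with 4.75% in the fourth, Tssk2 is lowest in the 2 testes with the lowest scores, and Tsacc stays at 65.0% or more throughout.

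Per length, the order of the kinases changed along the order of the testes by the score. The median FPKM over 9 testes was 18.97 for Tssk2, 14.60 for Tssk1, 11.38 for Tssk4, 5.07 for Tssk3 and 2.29 for Tssk6. Tssk2 was above Tssk1 in 6 of 9 testes and Tssk1 above Tssk4 in 7 of 9, so neither neighbour in this order stood apart from the next across testes. Tssk4 was above Tssk3, and Tssk3 above Tssk6, in 9 of 9. The log2 ratio of Tssk2 to Tssk1 FPKM went from -0.89 to 0.96, being lowest in the 2 testes with the lowest scores. The place of Tssk1 depends on its gene model. The length implied by its counts and FPKM was 3797 bases, near the 3700 of GENCODE, whereas RefSeq ends the gene after 1451. With the RefSeq length, an alternative added after the data were seen, Tssk1 would be above Tssk2 in up to 9 of 9 testes instead of 3. That value keeps all counts of the longer model, and how many reads fall beyond the RefSeq end was not measured, so it is an upper bound. The CPM slopes and edgeR comparisons do not divide by length, but they use the counts of the longer model. Whether they would differ for Tssk1 with the RefSeq end was not tested. For Tssk4, which has 7 transcripts in GENCODE, the length implied by counts and FPKM was 1369 bases, against 1717 exonic bases. Its place next to Tssk1 thus also depends on the length used, and another length was not tested for it. Tssk1 lies 714 bases upstream of Tssk2 in GENCODE and 2983 in RefSeq, and 63 bases of its exon overlap Dgcr2 on the other strand. In 2 libraries, Piwil4 WT/R264W replicate 2 and Piwil4 R264W/R264W replicate 3, the counts of Tssk1 and Tssk2 were not whole but their sum was, so the split between these similar genes is uncertain there.

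Another gene of the family, Tssk5, is not among the members and was looked at after the data were seen. It had 1 to 133 counts, or 0.04 to 3.70 FPKM, was lowest in Piwil4 WT/R264W replicate 3 and highest in wild-type replicate 1, and had a slope of 1.59 (SE 0.14). In homozygous mutant against wild-type testes its log2 fold change was 0.0079 (SE 1.14).

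Of the partners and substrates of the TSSKs, only Tsks had a slope within the range of the kinases among the 8 genes listed. Tsks, the substrate of TSSK1 and TSSK2, had 51.00, 8.68 and 4.59 FPKM in wild-type replicates 1, 2 and 3, 28.32, 14.16 and 4.07 in Piwil4 WT/R264W replicates and 7.55, 11.98 and 45.87 in Piwil4 R264W/R264W replicates. Its highest testis was that of all 5 kinases and its lowest that of all but Tssk6. Its slope was 1.35 (SE 0.058) in log2 CPM but 1.16 (SE 0.10) in log2(FPKM + 0.1), a setting added after the data were seen, and its range was 26.1-fold in CPM against 12.5-fold in FPKM. Its place among the kinases therefore depends on the scale, being between Tssk6 and Tssk2 on the first and between Tssk4 and Tssk3 on the other. Tsacc, the co-chaperone of TSSK6, was by contrast already at 48.08 to 68.26 FPKM in all testes, with a slope of 0.14 (SE 0.042). Tsacc FPKM was above that of Tssk6 in every testis, 56.28 against 0.96 in the one with the lowest score and 64.42 against 15.98 in the one with the highest. Odf2, substrate of TSSK4, had 508 to 824 FPKM and a slope of 0.24 (SE 0.032), and Spag16, an axoneme protein gene and substrate of TSSK2, 48.91 to 66.67 FPKM and 0.11 (SE 0.046). The phosphatase subunit gene Ppp1cc had a slope of 0.08, and the chaperone genes Hsp90aa1, Hsp90ab1 and Hspa8, whose products fold and stabilise kinases, had -0.03, -0.09 and -0.10. Between genotypes, 0 of 8 passed the adjusted edgeR threshold in each comparison, and 0 of 8 an unadjusted p under 0.05.

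The genes that package spermatid DNA were listed because TSSK6 acts in that step, and 5 of these 6 were steeper than any TSSK. The slopes were 2.48 for Prm1 and 3.00 for Prm2, the protamines. They were 2.56 for Tnp1 and 2.77 for Tnp2, the transition proteins that precede protamines, and 2.41 for H1f7, a spermatid linker histone. H1f9, another spermatid linker histone, had 1.27 (SE 0.055), close to Tssk3 and Tssk6. In the 4 testes with the lowest scores Tnp2 had 2, 12, 24 and 22 counts and Prm1 2, 4, 6 and 6, while Tssk1 had 311, 479, 717 and 937. In wild-type replicate 1 Tnp2 had 2412 counts and Prm1 899. At these low counts the slopes of the protamine and transition protein genes rest in part on the prior count of 1, and Prm2 and Tnp1 were each at 0 counts in 1 library. Between genotypes, 0 of these genes passed the adjusted edgeR threshold, of 6 tested in the comparisons of homozygous testes and of 5 in heterozygous against wild-type testes, where Prm1 was under the filter.

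**Figure D5:**
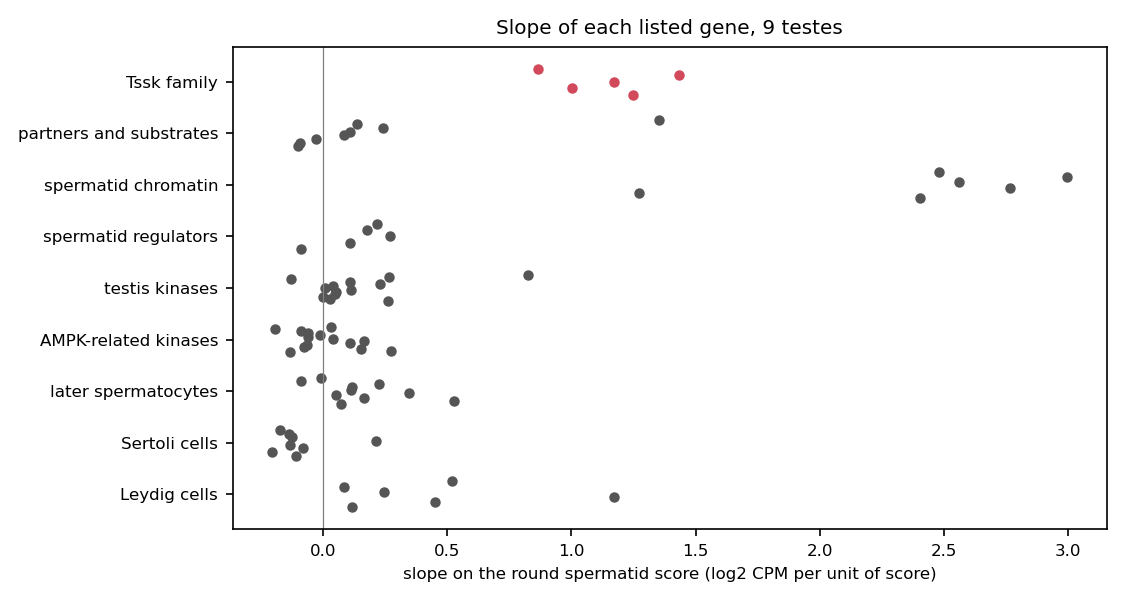
Slope on the round spermatid score (log2 CPM per unit of score, 9 testes) of each gene of the Tssk family and of 8 other lists; each point is a gene. The 5 kinases lie between 0.87 and 1.43, the spermatid chromatin genes between 1.27 and 3.00, and all but 1 of the 13 other testis kinases below 0.5.

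The other kinases listed had shallower slopes than the TSSKs, though Camk4 could not be set apart from Tssk1. Of 13 other kinases known from the testis, Camk4, a calmodulin-dependent kinase of spermatids, had the steepest slope with 0.82 (SE 0.18), near the 0.87 of Tssk1. Its CPM spanned 8.06-fold, against 8.12-fold for Tssk1. Stk31, which also carries a Tudor domain, had the shallowest slope with -0.13, and the median was 0.05. Of 14 AMPK-related kinases, relatives of the TSSKs, 0 had a slope above 0.5, from -0.20 for Prkaa2 to 0.27 for Brsk2. The regulators of the spermatid program had slopes from -0.09 for Mybl1, a master regulator of meiotic genes, to 0.27 for Sox30, a transcription factor needed for round spermatid genes. In each comparison of genotypes 0 of 13 testis kinases, 0 of 14 AMPK-related kinases and 0 of 5 regulators passed the adjusted edgeR threshold, and 0 of each an unadjusted p under 0.05.

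Along the order the median slopes of the other marker lists differed. The median was 1.43 for 10 genes of elongating spermatids, the cells that follow round spermatids, all 10 of them steeper than Tssk1. It was 0.11 for 10 genes of later spermatocytes, -0.15 for 10 of early meiosis, -0.13 for 8 of spermatogonia and -0.13 for 8 of Sertoli cells. It was -0.30 for 3 erythroid genes, which summed to 55.9 to 272 CPM. The 6 Leydig cell genes summed to 151 to 384 CPM with a median slope of 0.35, and Cyp17a1, an enzyme of androgen synthesis, had 1.17 (SE 0.40), as steep as Tssk3 but with a residual SD of 1.33 against 0.18. None of these 6 was at 0 in any library. The part of Leydig or blood cells in the kinases' levels was not tested.

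The genes whose profile over the 9 testes was most like that of each kinase were found among 14475 others as those with the smallest root mean square difference of log2 CPM after both had been centred. Nearest to Tssk1 were 1700001L19Rik (0.086), Fbxl13 (0.087), Arhgef2 (0.096), Fam217a (0.0996) and Spata48 (0.103). Nearest to Tssk2 were Rnf151 (0.101), Ropn1 (0.111), a protein of the fibrous sheath of the sperm tail, Oaz3 (0.114), the ornithine decarboxylase antizyme of haploid germ cells, Pdzk1 (0.123) and Ppm1j (0.125). Nearest to Tssk3 were Cdiptos (0.088), 1700013F07Rik (0.115), Adam24 (0.122), a testis metalloprotease gene, Gsg1 (0.123) and Tmem95 (0.124), a sperm protein needed for fertilisation. Nearest to Tssk4 were 1700001J03Rik (0.092), Mas1 (0.109), Ccdc63 (0.114), Naa80 (0.119) and Ankrd53 (0.124). Tssk6 had no neighbour as near, the first being Fbxo24 with 0.233, followed by Pkd1l3 (0.325), Cd109 (0.330), Samt3 (0.334) and Fam71f2 (0.349). No kinase was among the 5 nearest of another. Tssk1 and Tssk4 were the most alike of the members, with a difference of 0.214, while the adjacent genes Tssk1 and Tssk2 differed by 0.643, and Tssk6 differed from the rest by 0.651 to 0.818.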

How the data were processed

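The authors filtered paired-end reads of poly(A) libraries with fastp (version 0.18.0), assembled mapped reads with StringTie (version 1.3.1) on a reference and deposited, per gene and testis, an FPKM value and an estimated count, which is not scaled for library size. The submitters' processing notes name mm39 and DESeq2. The aligner, counting tool and strand setting are not given in the sources used here. After rounding to whole numbers, the estimated counts were fitted for each pair of genotypes in edgeR (version 4.0.16, R version 4.3.3) with filterByExpr, TMM, the quasi-likelihood test and Benjamini-Hochberg adjustment over all genes. Alternatives used DESeq2 (version 1.42.0) and limma (version 3.58.1) among others. Levels are TMM-scaled CPM over 9 libraries, with a prior count of 1 for log2 values, and FPKM for comparing genes with each other. Coding sequences were aligned with Biopython (version 1.88). The edgeR fit was tested on simulated counts.

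Every library was grouped by its genotype label. The members, gene lists, score and tests were chosen with earlier results of these data known. Named are all members, Piwil4, every partner, substrate and chromatin gene, the steepest and shallowest genes of other kinase and regulator lists, and the 5 nearest profiles. Tssk5, Ndufa13, Dgcr2, Cyp17a1, Zpbp, Zpbp2, Dpy19l2 and the letters TGACTTCA fall outside this rule and were named after their values or sequences were seen. Depth was 18 to 24.3 M counts per library. The intervals that counts of 0 allow cover counting error only.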

Additional observations from a re-analysis of the deposited data

How the results depend on the processing

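The count of TSSKs past the adjusted threshold was 0 of 5 in every comparison under each alternative: DESeq2, DESeq2's size factors in edgeR, no filter, a filter of 10 counts in every library, limma on log2(FPKM + 1) and log2(FPKM + 0.1), all 9 libraries in a single fit, the replicate block, the score covariate and each library left out. None of the values below was past the test either. Of 225 fold changes under these alternatives 38 changed sign, 30 of them with a library left out. With the score as covariate the sign changed for Tssk3 (-0.084) and Tssk4 (-0.18) in homozygous against wild-type testes, for Tssk3 (-0.0086), Tssk4 (-0.21) and Tssk6 (-0.31) in homozygous against heterozygous testes, and for Tssk2 (0.082) and Tssk4 (0.033) in heterozygous against wild-type testes. With the replicate block Tssk6 in homozygous against wild-type testes was 0.30. The labels do not say whether the replicate numbers pair the testes. Deviations of same-numbered libraries correlated from -0.75 to 0.79 and not every one was above 0.1. This cannot decide the question, since the libraries of each genotype also differed in the round spermatid score. The block moved the number of genes at an unadjusted p under 0.05 from 196 to 52, from 343 to 131 and from 171 to 181 in the order of comparisons above.

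With a library left out, homozygous against wild-type fold changes ranged from -0.40 to 1.34 for Tssk1, -0.87 to 2.23 for Tssk2, -0.83 to 1.72 for Tssk3, -0.71 to 1.28 for Tssk4 and -2.10 to 2.11 for Tssk6, with the highest without wild-type replicate 1 and the lowest without Piwil4 R264W/R264W replicate 3. The sign also changed there without wild-type replicate 2 or 3 for Tssk1 to Tssk4, and without Piwil4 R264W/R264W replicate 1 or 2 for Tssk6. Homozygous against heterozygous ones ranged from -0.12 to 0.91 for Tssk1, -0.43 to 1.36 for Tssk2, -0.43 to 1.32 for Tssk3, -0.51 to 0.71 for Tssk4 and -1.19 to 1.85 for Tssk6, turning negative without Piwil4 R264W/R264W replicate 3 for all 5 and without Piwil4 WT/R264W replicate 3 for Tssk4. Heterozygous against wild-type ones ranged from -0.70 to 0.86 for Tssk1, -1.20 to 1.62 for Tssk2, -1.21 to 1.20 for Tssk3, -0.65 to 1.02 for Tssk4 and -2.04 to 1.38 for Tssk6, turning positive without wild-type replicate 1 for all 5 and without Piwil4 WT/R264W replicate 3 for Tssk1 to Tssk4. The slopes with a library left out ranged from 0.85 to 0.87 for Tssk1, 1.41 to 1.45 for Tssk2, 1.15 to 1.21 for Tssk3, 0.98 to 1.01 for Tssk4 and 1.12 to 1.5 for Tssk6, the last value without Piwil4 WT/R264W replicate 3. The Tssk1 length taken from RefSeq, added after the data were seen, moved the testes in which Tssk1 FPKM was above Tssk2 from 3 to at most 9, and log2(FPKM + 0.1), also added then, moved the slope of Tsks from 1.35 to 1.16. The 24 to 38 counts of Tssk6 in the testes with the lowest scores limit how finely its order there can be read.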
